A study of Mus musculus with 25 samples.

Results

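The open chromatin around 9 genes that encode regulators of effector CD8+ T cells was followed through sensitization and pregnancy: Tbx21, Eomes, Prdm1, Zeb2, Id2, Maf, Ikzf2, Ikzf3 and Rora. A peak was assigned to one of them when its midpoint had that gene's transcription start as the nearest start of a protein-coding gene (GENCODE vM39, GRCm39), or lay within that gene's body. Of 13527 peaks, 41 met this rule. There were 4 at Tbx21, 8 at Eomes, 5 at Prdm1, 2 at Zeb2, 5 at Id2, 6 at Maf, 4 at Ikzf2, 1 at Ikzf3 and 6 at Rora. All 6 Rora peaks, the Ikzf3 peak and 1 Zeb2 peak entered only because they lay in the gene's body, and other genes (Ice2, Grb7 and Gtdc1) had the nearest start. Assignment does not show that a peak acts on the gene. Each peak is called below by the distance in kb of its centre from the gene's annotated start, with positive values downstream. Promoter peaks, within 1000 bp of a transcript start, made up 14.6% of the 41 and 56.7% of all peaks, and the median length was 702 bp against 963 bp.

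The cells were T_FGS, CD8+ T cells of adult female C57BL/6 mice sorted one animal at a time from spleen and lymph nodes with an OVA:Kb tetramer, so that they recognize an antigen that the paternal strain expresses in the skin graft and in the fetus. Naive mice (n = 3 libraries) had met neither, and Sensitized mice (n = 4) had rejected a skin graft of 2W-OVA.BALB/c donors. N+P mice were unsensitized and S+P mice were sensitized before a pregnancy sired by 2W-OVA.BALB/c males, and their cells were taken post-partum. Post-partum cells were divided by the inhibitory receptor PD1 and the ectoenzyme CD73: C1 (N+P, n = 3) and C4 (S+P, n = 4) were PD1-negative, C5 (N+P, n = 3, and S+P, n = 4) was positive for both, and C7 (S+P, n = 4) was PD1-positive and CD73-negative. Cells of Naive and Sensitized mice were not divided in this way, so pregnancy and sorted subset differ together in every comparison of a post-partum subset with them. ATAC-seq marks accessible DNA by where a transposase cuts it, and in a sorted population a larger share of cells with an open site and a more open site in each cell cannot be told apart.

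T-bet (Tbx21) and Eomes are related T-box transcription factors that drive cytotoxic genes and cytokine receptors in CD8+ T cells. Blimp1 (Prdm1), the zinc-finger E-box repressor Zeb2 and Id2, an inhibitor of E proteins, act with them as cells become terminal effectors. c-Maf (Maf), Helios (Ikzf2), Aiolos (Ikzf3) and RORα (Rora) are known from regulatory, exhausted and helper T cell states as well. Enhancers of such genes often lie far from the start, in introns or between genes, and can open during a first response and remain accessible in memory cells.

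Library totals ran from 2430890 to 25419715 counts in peaks, with a median of 8197552, and S+P C4 replicate 1 was the shallowest. Across all peaks, 10 of the 25 libraries resembled the mean of another group more than that of their own. The N+P C5 mean was the nearest for replicates 3 and 4 of Sensitized, with r of 0.973 and 0.955, and also for S+P C4 replicate 1 (0.923, against 0.869 to its own group), while the S+P C4 mean was the nearest for Sensitized replicate 1 (0.931, against 0.868). For the 41 peaks, calls against Sensitized or of Sensitized against Naive that changed without Sensitized replicates 3 and 4 are given below. Without S+P C4 replicate 1 the counts of member calls in S+P C4 against Sensitized and in S+P C5 against S+P C4 were the same, 2 and 5. Of 7 CD8+ T cell markers, 6 had a promoter peak, with summed normalized counts of 2618 to 3662 over all libraries. No promoter peak was present for any of 6 B cell, 5 myeloid, 3 NK cell and 3 erythroid markers. Of 3 CD4+ T cell markers, Cd4 and Zbtb7b had none, and the peak near Foxp3 also lay at the start of Ppp1r3f.

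For 6 of the peaks that the results turn on, the window is printed as the central 300 bases of the peak, from GRCm39, on the plus strand. The first 4 were called higher in Sensitized than in Naive, and those of Eomes and Ikzf2 were not. Tbx21 +5.5 kb and Maf +237.3 kb lost this call with offsets fitted by loess against the mean count. At all 6 the group mean was highest in S+P C5 or S+P C7. None overlaps an annotated UTR. Capitals mark matches, on either strand, to the motif letters searched: TCACACC (T-box), CAGGTG (E-box bound by ZEB proteins), GNGAAAG (Blimp1), TGCTGAC (Maf half-site), TGGGAA (Ikaros family), AGGTCA (ROR half-site), TGAGTCA (AP-1), TGGAAA (NFAT), TGTGGTT (RUNX) and ATCAAAG (TCF).
Tbx21 +5.5 kb (chr11:97000471-97000770): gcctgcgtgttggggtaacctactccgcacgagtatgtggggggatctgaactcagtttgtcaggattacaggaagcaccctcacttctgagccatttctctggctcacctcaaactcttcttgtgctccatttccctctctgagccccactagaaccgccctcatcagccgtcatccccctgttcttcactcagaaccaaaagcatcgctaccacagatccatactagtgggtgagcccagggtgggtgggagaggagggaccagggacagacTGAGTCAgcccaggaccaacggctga
Tbx21 +11.1 kb (chr11:96994906-96995205): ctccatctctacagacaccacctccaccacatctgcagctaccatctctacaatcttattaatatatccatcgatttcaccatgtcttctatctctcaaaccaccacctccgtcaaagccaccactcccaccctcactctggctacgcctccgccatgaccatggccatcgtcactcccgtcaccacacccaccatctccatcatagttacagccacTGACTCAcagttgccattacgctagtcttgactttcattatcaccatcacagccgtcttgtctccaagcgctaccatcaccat
Rora +660.9 kb (chr9:69221785-69222084): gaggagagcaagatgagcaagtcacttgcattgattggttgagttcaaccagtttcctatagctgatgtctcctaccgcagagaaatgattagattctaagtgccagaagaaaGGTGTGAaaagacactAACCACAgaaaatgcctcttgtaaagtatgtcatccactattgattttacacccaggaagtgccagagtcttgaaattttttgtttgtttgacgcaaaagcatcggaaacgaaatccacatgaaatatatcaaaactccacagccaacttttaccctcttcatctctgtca
Maf +237.3 kb (chr8:116197147-116197446): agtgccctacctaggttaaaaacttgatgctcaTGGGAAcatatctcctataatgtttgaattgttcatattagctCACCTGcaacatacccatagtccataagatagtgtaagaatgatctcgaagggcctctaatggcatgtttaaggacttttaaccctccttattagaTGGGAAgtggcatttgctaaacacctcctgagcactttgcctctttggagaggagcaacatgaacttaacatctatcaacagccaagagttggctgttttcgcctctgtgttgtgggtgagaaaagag
Eomes −160.6 kb (chr9:118146546-118146845): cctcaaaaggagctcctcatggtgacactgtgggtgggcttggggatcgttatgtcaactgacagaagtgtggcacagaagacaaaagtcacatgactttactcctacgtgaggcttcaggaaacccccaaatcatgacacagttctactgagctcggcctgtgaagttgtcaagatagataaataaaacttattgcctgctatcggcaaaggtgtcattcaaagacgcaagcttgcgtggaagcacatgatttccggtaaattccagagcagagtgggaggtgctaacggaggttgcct
Ikzf2 +143.4 kb (chr1:69583417-69583716): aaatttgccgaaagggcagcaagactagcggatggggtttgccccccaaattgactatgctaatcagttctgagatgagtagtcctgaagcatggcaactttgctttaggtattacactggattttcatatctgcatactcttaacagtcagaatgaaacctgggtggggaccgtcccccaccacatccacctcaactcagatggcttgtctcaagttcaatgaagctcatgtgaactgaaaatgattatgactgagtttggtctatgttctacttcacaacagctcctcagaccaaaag

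Both Tbx21 windows hold an AP-1 match. The Rora window holds a T-box and a RUNX match, and the Maf window holds a pair of Ikaros matches and an E-box. The Eomes −160.6 kb and Ikzf2 +143.4 kb windows hold none of the 10 motifs. Over the 41 peaks, AP-1 letters were found in 8 (19.5%), against 12.6% of the 5857 peaks outside promoters and 7.22% of all peaks. T-box letters were found in 3 of 41 (7.32%), against 7.72% of peaks outside promoters. A match is a description of letters, and no match says only that these letters are not in this window.

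Accessibility at these genes differed mainly between sensitized and unsensitized mice. At 13 of the 41 peaks all 16 libraries of sensitized mice, with or without pregnancy, lay above all 9 libraries of the other mice, and at 1 they lay below, where over all peaks this held for 5.88% and 1.26%. Same-numbered libraries of post-partum subsets were taken to come from the same mouse. Libraries counted together over such subsets, here and below, are therefore not separate animals. Calls needed an adjusted p below 0.1 (DESeq2, adjusted over all peaks) together with a log2 fold change of more than 0.9 in size, and all differences below are on the log2 scale, ± SE. Of the 41, 22 were called in at least 1 of 11 comparisons, where 22% of all peaks were. They were 20 of the 35 peaks outside promoters, against 44.3% of all such peaks, and 2 of the 6 promoter peaks, against 4.95%. The shares of all peaks given for single comparisons include the promoter peaks, which are 56.7% of all peaks and 14.6% of the 41. Shares outside promoters were not counted per comparison, so part of each contrast with all peaks can come from this make-up. No peak of Prdm1 or Ikzf3 was called.

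**Figure D1:**
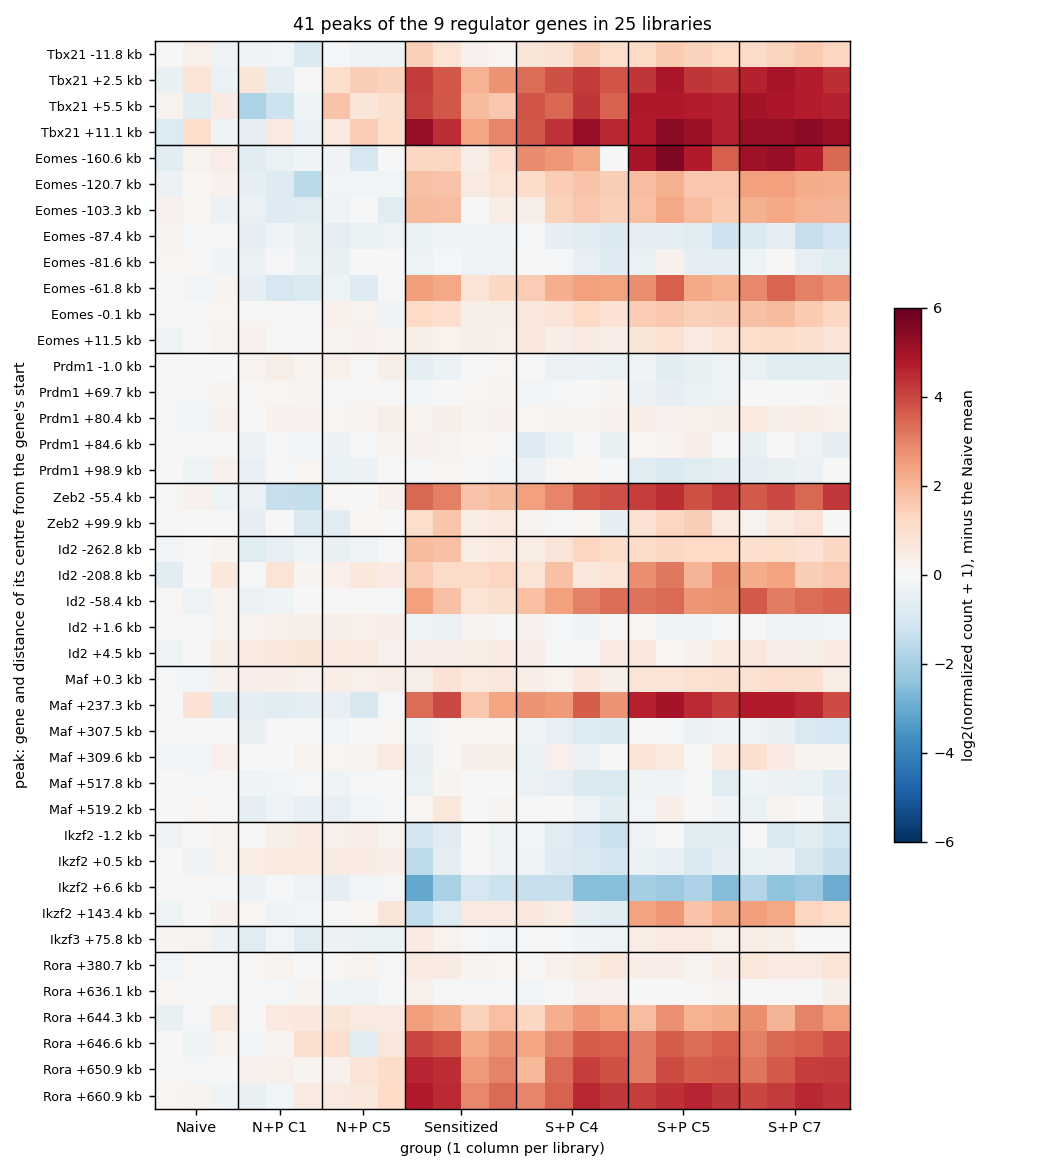
Log2(normalized count + 1) of the 41 peaks in each of the 25 libraries, minus the mean of the 3 Naive libraries of that peak. Rows are peaks ordered by gene and by distance from the gene's start, columns are libraries ordered by group. The intronic Tbx21 rows, the Zeb2 −55.4 kb, Maf +237.3 kb and Rora +644.3 to +660.9 kb rows are red in all 16 columns of sensitized mice, the Eomes −160.6 kb row is deepest in the C5 and C7 subsets of S+P, and the Prdm1 rows stay near 0.

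What graft rejection had changed was asked by comparing Sensitized with Naive. There 16 member peaks were called higher, against 7.22% of all peaks, and 1 was called lower, against 1.4%. The median log2 difference was 0.40 over the 41 peaks and −0.01 over all peaks. Post-partum subsets of sensitized mice were compared with Sensitized, where pregnancy and sorted subset differ together. In S+P C5, 9 member peaks were called higher (3.08% of all peaks) and 0 lower (3.67%), and in S+P C7, 10 were called higher (3.84%) and 0 lower (8.03%). In PD1-negative S+P C4, 1 was called higher (0.562%) and 1 lower (0.296%). The 41-peak medians were 0.08, 0.18 and −0.07, with medians of −0.01, 0.00 and −0.02 over all peaks, and 19, 23 and 7 of the 41 had an unadjusted p under 0.05 in either direction.

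In unsensitized mice the post-partum subsets gave no member calls with the settings used here. Eomes −120.7 kb was called lower in N+P C1 under 4 alternatives, and Tbx21 +2.5 kb was called higher in N+P C5 when the compared groups were fitted alone. N+P C1 against Naive had 0 called higher (0% of all peaks with an adjusted p) and 0 lower (0.0205%), and N+P C5 against Naive had 0 higher (0.0262%) and 0 lower (0%). The independent filter left only 7 and 4 of the 41 peaks with an adjusted p in these comparisons, and 7 in each had an unadjusted p under 0.05. N+P C5 against N+P C1 had 0 calls in either direction (0% and 0% of all peaks) and 5 peaks at an unadjusted p under 0.05 (DESeq2), and edgeR made 0 calls in all 3. S+P C5 against N+P C5, both PD1+ and CD73+, had 20 called higher (10.3%) and 2 lower (6.97%), with a median of 0.82. Within sensitized, post-partum mice, S+P C5 had 5 peaks called higher than S+P C4 (3.12%) and 0 lower (2%), with 18 at an unadjusted p under 0.05. S+P C7 against S+P C5 had 0 higher (0.266%) and 0 lower (2.11%), with 9 peaks at an unadjusted p under 0.05 and 0 calls by edgeR. The interaction, which subtracts the N+P C5 difference to Naive from the S+P C5 difference to Sensitized, had 7 peaks called higher (3.04%) and 0 lower (2.93%), with 13 at an unadjusted p under 0.05. These 7 fell to 3 without Naive replicate 2 or Sensitized replicate 4, and to 4 without N+P C5 replicate 3, Sensitized replicate 3 or S+P C5 replicate 2. The 2 calls of S+P C4 became 6 without Sensitized replicate 1, and 1 without Sensitized replicate 2 or 4 or S+P C4 replicate 3.

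Tbx21 (chromosome 11), which encodes T-bet, the factor that directs IFN-γ production and effector differentiation, carried the peak with the widest range of group means among the 41. Its 3 intronic peaks were close to empty in mice without a graft and exceeded all Naive libraries in every library of sensitized mice. At Tbx21 +5.5 kb the normalized counts were 8.27, 3.93 and 10.1 in Naive, 1.11, 2.24 and 5.65 in N+P C1, and 25.2, 12.3 and 14.4 in N+P C5. In sensitized mice they were 135, 104, 28.7 and 23.9 in Sensitized, and in the S+P subsets 109, 85.7, 157 and 90.6 in C4, 219, 225, 208 and 195 in C5, and 253, 232, 207 and 194 in C7. Every library of S+P C5 and S+P C7 lay above every library of S+P C4 and Sensitized, and Sensitized replicates 3 and 4 lay just around the highest N+P C5 library. The log2 difference was 3.26 ± 0.54 (adjusted p 4.25e-08) between Sensitized and Naive and 1.54 ± 0.42 (adjusted p 0.00271) between S+P C5 and Sensitized.

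At Tbx21 +11.1 kb the counts were 8.27, 33.4 and 12.6 in Naive, 9.96, 22.4 and 11.3 in N+P C1, and 23.1, 45.2 and 32.5 in N+P C5. In sensitized mice they were 611, 349, 82.0 and 124 in Sensitized, and in the S+P subsets 214, 328, 603 and 378 in C4, 447, 689, 588 and 398 in C5, and 605, 616, 679 and 570.2 in C7. The 16 values of sensitized mice spread widely but did not overlap with the other 9. Sensitized exceeded Naive by 4.00 ± 0.52 (adjusted p 1.28e-12), and S+P C7 exceeded Sensitized by 1.08 ± 0.45 (adjusted p 0.0369) with overlapping groups. At Tbx21 +2.5 kb the counts ranged from 10.1 to 43.9 in unsensitized and from 68.2 to 494 in sensitized mice, and all 3 differences were called: 3.35 ± 0.42 for Sensitized against Naive, and against Sensitized 1.05 ± 0.35 for S+P C5 and 1.28 ± 0.35 for C7 cells. Both of the latter calls were lost without Sensitized replicates 3 and 4 (0.46 and 0.69) and with offsets fitted by loess against the mean count (0.32 and 0.52). The intergenic peak at −11.8 kb had 102 to 234 in unsensitized mice and 203 to 566 in sensitized mice and was called in S+P C5 against N+P C5, at 1.51 ± 0.26 (adjusted p 9.88e-08). It was also called in Sensitized against Naive without Sensitized replicates 3 and 4, at 1.16 (adjusted p 1.11e-05), compared with 0.74 ± 0.26 with them.

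For N+P C5 against Naive the log2 differences were 1.23 ± 0.47 at +2.5 kb (unadjusted p 0.00869, DESeq2) and 1.21 ± 0.60 at +5.5 kb (unadjusted p 0.0425). Neither had an adjusted p after the independent filter, and without it the adjusted p was 0.169 and 0.269. The interaction at the 3 introns was −0.18, 0.33 and −0.01 with SE of 0.58 to 0.73. Whether the C5 differences of sensitized and unsensitized mice were unlike was therefore not detectable there. The Tbx21 +5.5 kb values depended on scaling: with loess offsets Sensitized against Naive fell to 0.22, S+P C5 against Sensitized turned to −0.06 and S+P C5 against N+P C5 turned to −0.51, while Tbx21 +11.1 kb kept 3.18 for Sensitized against Naive and lost its call in S+P C7 (0.65). The latter was also lost without Sensitized replicate 3 or 4 and with the compared groups alone.

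**Figure D2:**
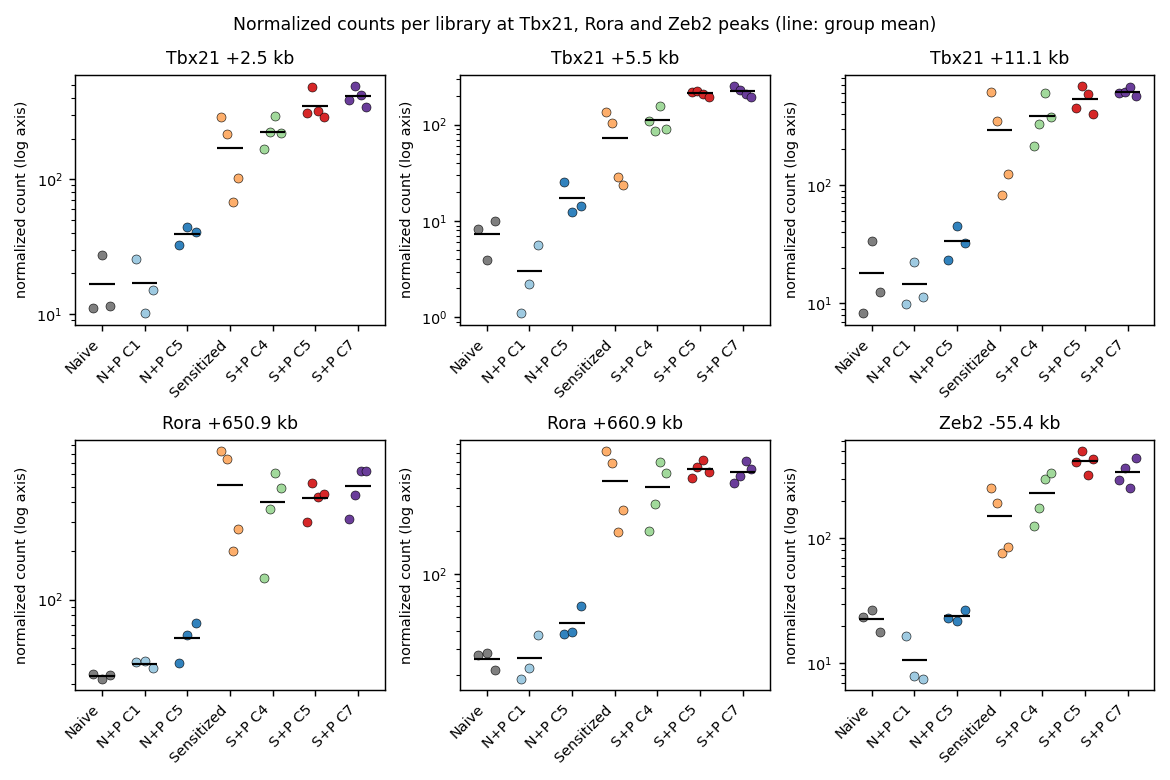
Normalized counts per library on a log axis at the 3 intronic Tbx21 peaks, 2 Rora introns and the Zeb2 −55.4 kb peak, 1 point per library, with a line at each group's mean. At Tbx21 +11.1 kb the 9 libraries of unsensitized mice lie at 8.27 to 45.2 and the 16 of sensitized mice at 82.0 to 689, and the lower pair of Sensitized points is replicates 3 and 4 in each panel.

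Eomes (chromosome 9), the T-box factor associated with memory and with exhausted CD8+ T cells, had 1 peak with the largest gain in PD1+ cells of S+P mice among the 41. Eomes −160.6 kb (chr9:118146456-118146934), between genes, had counts of 5.51, 10.8 and 13.2 in Naive, 5.53, 6.73 and 7.54 in N+P C1, and 8.05, 4.11 and 9.62 in N+P C5. In sensitized mice it had 23.6, 23.5, 12.6 and 20.1 in Sensitized, and in the S+P subsets 71.5, 61.0, 49.5 and 9.51 in C4, 319.9, 499, 276 and 124 in C5, and 354, 388, 275 and 111 in C7. All 8 libraries of S+P C5 and S+P C7 lay above all 17 others, those of Sensitized stayed near the Naive range, and in S+P replicate 4 all 3 subsets were lowest. Among the lists of reproducible peaks this peak was in that of S+P C5 alone, so its tests of S+P C5 are not independent of how it was chosen. The log2 difference to Sensitized was 3.93 ± 0.49 (adjusted p 2.44e-13) in S+P C5 and 3.82 ± 0.49 (adjusted p 5.91e-13) in S+P C7. It was 2.72 ± 0.49 (adjusted p 2.3e-06) between S+P C5 and S+P C4, and 0.97 ± 0.58 (adjusted p 0.282) between Sensitized and Naive. N+P C5 against Naive was −0.47 ± 0.69, and the interaction was 4.40 ± 0.84 (adjusted p 0.000106). Without Sensitized replicates 3 and 4 the S+P C5 and C7 differences were 3.69 and 3.58, and with loess offsets they were 1.49 and 1.39, all still called. The call was lost with loess offsets in S+P C5 against N+P C5 (0.56) and against S+P C4 (0.81), and Sensitized against Naive changed sign to −2.09 (adjusted p 0.00306), a call for lower accessibility in Sensitized.

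Of the 5 other upstream Eomes peaks outside the promoter, 3 opened with sensitization. Eomes −61.8 kb rose by 1.88 ± 0.36 (adjusted p 5.62e-06) in Sensitized (155 to 493) against Naive (76.7 to 96.5). It reached 369 to 1052 in S+P C5 and 588 to 974 in S+P C7, which were 0.92 ± 0.33 (adjusted p 0.0273) and 1.18 ± 0.33 (adjusted p 0.00154) above Sensitized. Both of these calls were lost without Sensitized replicates 3 and 4 (0.40 and 0.65). The S+P C5 call, close to the fold threshold, was kept under 11 of 17 alternatives. It was also lost without Sensitized replicate 3, Sensitized replicate 4 or S+P C5 replicate 2 alone, with loess offsets (0.86) and with the compared groups alone. Eomes −120.7 kb and −103.3 kb rose by 1.28 ± 0.26 and 1.26 ± 0.34 with sensitization, and −120.7 kb by a further 1.03 ± 0.24 in S+P C7, a call lost without Sensitized replicates 3 and 4 (0.59). The promoter peak followed with a smaller change. Its counts were 286 to 417 in unsensitized mice, 421 to 754 in Sensitized, and in the S+P subsets 534 to 764 in C4, 899 to 1022 in C5 and 798 to 1226 in C7. It was called in S+P C5 against N+P C5, at 1.40 ± 0.19 (adjusted p 7.22e-12), and passed the p but not the fold threshold in S+P C5 against Sensitized, at 0.75 ± 0.17 (adjusted p 0.000364). The promoter was also called in Sensitized against Naive without Sensitized replicates 3 and 4 (1.09, against 0.77 ± 0.19 with them), while its S+P C5 difference to Sensitized fell to 0.42 (adjusted p 0.0868). The peaks at −87.4, −81.6 and +11.5 kb were not called in any comparison.

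**Figure D3:**
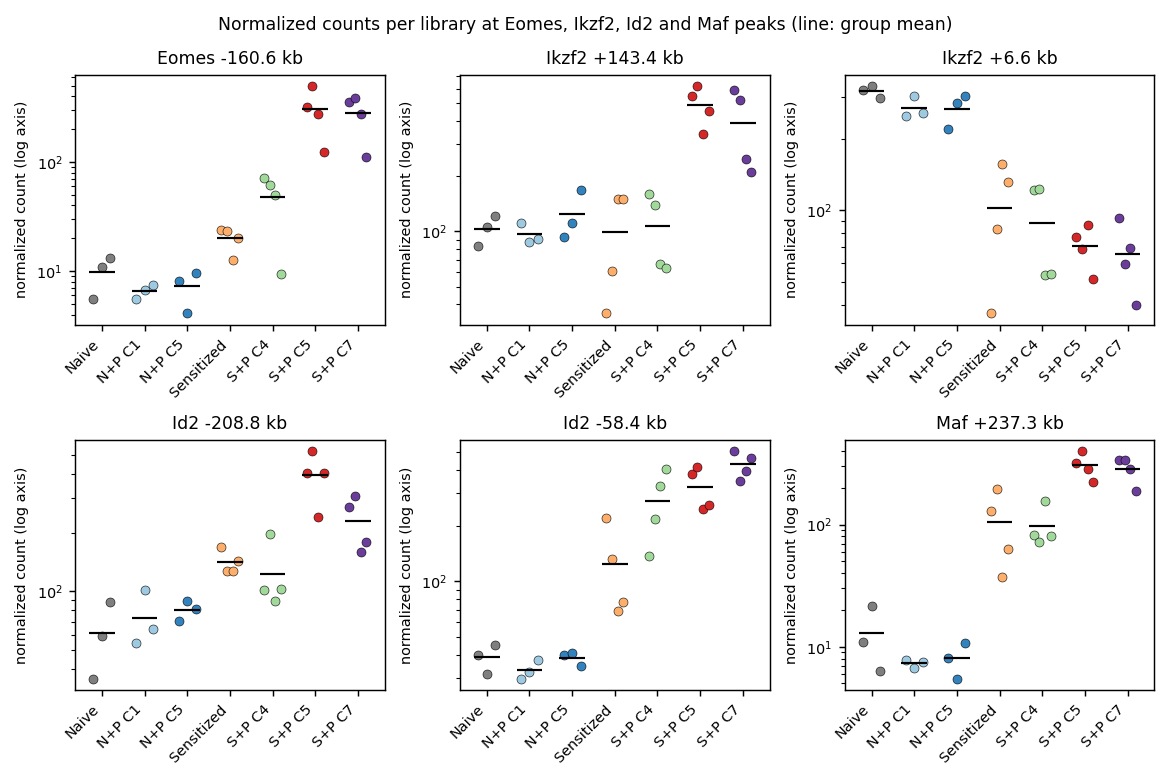
Normalized counts per library on a log axis at the Eomes −160.6 kb, Ikzf2 +143.4 and +6.6 kb, Id2 −208.8 and −58.4 kb and Maf +237.3 kb peaks, 1 point per library, with a line at each group's mean. At Eomes −160.6 kb the 8 libraries of S+P C5 and S+P C7 lie at 111 to 499 and the other 17 at 4.11 to 71.5, and Ikzf2 +6.6 kb lies at 219 to 334 in unsensitized and at 36.9 to 157 in sensitized mice.

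Prdm1 (chromosome 10), which encodes Blimp1, a repressor that promotes terminal effector differentiation and is raised in exhausted cells, was accessible in all groups and had no called peak. Its 5 peaks had counts between 146 and 982 in every library, and none reached the fold threshold in any of the 11 comparisons. Smaller differences passed the p threshold in S+P C5. At Prdm1 +69.7 kb, at the start of a shorter transcript, the counts were 528, 609, 633 and 654 in Sensitized, and in the S+P subsets 531, 569.9, 609.7 and 671 in C4, 471, 399, 443 and 484 in C5 and 609.8, 608, 587 and 659.8 in C7. The 4 S+P C5 values were below those of all 21 other libraries. S+P C5 was −0.42 ± 0.09 (adjusted p 7.02e-05) against Sensitized and −0.41 ± 0.09 (adjusted p 0.000331) against S+P C4, S+P C7 was 0.45 ± 0.09 (adjusted p 0.000134) against S+P C5, and the interaction was −0.43 ± 0.14 (adjusted p 0.0199). Prdm1 +98.9 kb was also lower in S+P C5 (−0.66 ± 0.15, adjusted p 0.000408, against Sensitized, with 202 to 254 against 331 to 391). The intron at +84.6 kb was lower in S+P C4 and S+P C7 than in Sensitized, at −0.54 ± 0.15 (adjusted p 0.0153) and −0.50 ± 0.14 (adjusted p 0.00196), whereas the value in S+P C5 was 0.01 ± 0.14. Prdm1 −1.0 kb, next to the annotated start, had 601 to 776 in unsensitized mice and 369 to 458 in S+P C7, which was −0.47 ± 0.13 (adjusted p 0.00185) against Sensitized and −0.18 (adjusted p 0.327) without Sensitized replicates 3 and 4, no longer past the p threshold.

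Zeb2 (chromosome 2), a repressor that acts below T-bet in terminal effector cells, had a pair of peaks with different courses. Zeb2 −55.4 kb, upstream between genes, had counts of 23.4, 26.6 and 17.7 in Naive, 16.6, 7.85 and 7.54 in N+P C1, and 23.1, 21.9 and 26.5 in N+P C5. In sensitized mice it had 254, 191, 75.7 and 85.7 in Sensitized, and in the S+P subsets 126, 174, 296 and 333 in C4, 406, 497, 323 and 428 in C5, and 295, 366, 250.2 and 436 in C7. All sensitized libraries lay above all others, and S+P C5 lay above all Sensitized libraries. The log2 difference was 2.76 ± 0.41 (adjusted p 6.04e-10) for Sensitized against Naive, 1.45 ± 0.34 (adjusted p 0.000481) and 1.16 ± 0.34 (adjusted p 0.00316) for S+P C5 and C7 against Sensitized, and 4.11 ± 0.41 (adjusted p 4.59e-21) for S+P C5 against N+P C5, the smallest adjusted p among the 20 peaks called higher there. Without Sensitized replicates 3 and 4 the S+P C5 and C7 differences lost their calls (0.89 and 0.60), and likewise with loess offsets (0.61 and 0.32). Loess offsets also lowered Sensitized against Naive to 1.31 and S+P C5 against N+P C5 to 1.96, both still called. The interaction, 1.35 ± 0.58 (adjusted p 0.074), fell to 0.79 without these 2 libraries.

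The intronic peak Zeb2 +99.9 kb, whose nearest start is that of Gtdc1, was the only one of the 41 that was called lower in PD1-negative S+P C4. Its counts were 157, 148 and 147 in Naive, 318, 486, 202 and 228 in Sensitized, and in the S+P subsets 174, 143, 163 and 103 in C4, 278, 373, 417 and 228 in C5 and 174, 223, 263 and 151 in C7. Sensitized and S+P C5 did not overlap with S+P C4, whose values were around those of Naive. It rose by 1.04 ± 0.30 (adjusted p 0.00584) in Sensitized against Naive, was −1.10 ± 0.28 (adjusted p 0.00842) in S+P C4 against Sensitized, and 1.17 ± 0.28 (adjusted p 0.000961) in S+P C5 against S+P C4. Without Sensitized replicate 2 the first pair of calls was lost (0.73 and −0.80), and with loess offsets the call against Naive was lost as well (0.86), as was that of S+P C5 against N+P C5 (0.80, from 1.25 ± 0.30). In S+P C7 it was −0.61 ± 0.28 against Sensitized, and −0.997 (adjusted p 0.00732), a call, without Sensitized replicates 3 and 4.

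Id2 (chromosome 12), which keeps E proteins from binding DNA and favours effector cells, had a promoter peak that was open everywhere, with 851 to 1473 counts over the 25 libraries, and was not called in any comparison. Its distal peaks changed. Id2 −58.4 kb had counts of 40.0, 31.5 and 45.4 in Naive, 29.9, 32.5 and 37.7 in N+P C1, and 40.2, 41.1 and 34.9 in N+P C5. The sensitized libraries had 219, 132, 69.4 and 77.0 in Sensitized, and in the S+P subsets 136, 218, 325 and 401 in C4, 379, 415, 245 and 259 in C5, and 504, 346, 396 and 463 in C7. Sensitized replicates 3 and 4 were again the lowest of the sensitized libraries. It exceeded Naive by 1.67 ± 0.37 (adjusted p 9.86e-05) in Sensitized, and exceeded Sensitized by 1.38 ± 0.32 (adjusted p 0.000345) in S+P C5, 1.78 ± 0.32 (adjusted p 4.88e-07) in S+P C7 and 1.14 ± 0.32 (adjusted p 0.0227) in S+P C4. Without Sensitized replicates 3 and 4 these last 3 values were 0.88, 1.28 and 0.65, and only that of S+P C7 was still called. The S+P C4 call was kept under 11 of 17 alternatives, and was also lost without Sensitized replicate 4, S+P C4 replicate 3 or S+P C4 replicate 4 alone, with the compared groups alone and with the replicate block. With loess offsets the calls of Sensitized against Naive (0.74) and of S+P C5 against Sensitized (0.83) were lost.

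Id2 −208.8 kb was highest in S+P C5, where the counts were 403, 522, 240.4 and 405, against 271, 306, 159 and 179.9 in S+P C7, 102, 197, 89.1 and 103 in S+P C4, 168, 128, 127 and 143 in Sensitized and 35.8 to 102 in unsensitized mice. The S+P C5 libraries lay above every library of Sensitized and S+P C4. The difference was 1.47 ± 0.29 (adjusted p 2.44e-05) to Sensitized, 1.40 without replicates 3 and 4, 0.91 with loess offsets, just over the fold threshold, and 1.67 ± 0.30 (adjusted p 2.93e-06) to S+P C4. Sensitized exceeded Naive by 1.19 ± 0.33, a call lost with loess offsets (0.48). S+P C7 was −0.78 ± 0.30 (adjusted p 0.0981) against S+P C5, short of the fold threshold, and was called without S+P C5 replicate 3 (−0.95) or S+P C7 replicate 2 (−0.94). Id2 −262.8 kb opened with sensitization (1.30 ± 0.27, adjusted p 4.44e-05) and was −0.12 ± 0.25 in S+P C5 against Sensitized. That value was −0.63 (adjusted p 0.00655) without Sensitized replicates 3 and 4, with −0.76 in S+P C7 and −0.85 in S+P C4, all past the p threshold and short of the fold threshold. The peak at +4.5 kb had 194 to 399 counts and no call.

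Maf (chromosome 8), which encodes c-Maf, a factor of IL-10-producing and exhausted T cells, had 1 distal peak that went from near empty in unsensitized mice to well open in sensitized mice. Maf +237.3 kb had 11.0, 21.6 and 6.31 in Naive, 7.74, 6.73 and 7.54 in N+P C1, and 8.05, 5.48 and 10.8 in N+P C5. With sensitization it had 129, 195, 37.3 and 63.5 in Sensitized, and in the S+P subsets 81.7, 72.7, 157 and 81.1 in C4, 320.2, 399, 283 and 222 in C5, and 336, 339, 287 and 189 in C7. All sensitized libraries lay above all others, S+P C5 lay above all Sensitized libraries, and S+P C4 did not exceed Sensitized. The log2 difference was 3.05 ± 0.49 (adjusted p 1.97e-08) for Sensitized against Naive, 1.53 ± 0.40 (adjusted p 0.00203) and 1.44 ± 0.40 (adjusted p 0.00168) for S+P C5 and C7 against Sensitized, and 1.64 ± 0.41 (adjusted p 0.00169) for S+P C5 against S+P C4. The interaction was 2.18 ± 0.73 (adjusted p 0.0247). Without Sensitized replicates 3 and 4 the S+P C5 difference was 0.93 (adjusted p 0.0929), just called, and that of S+P C7 0.83, not called. With loess offsets the S+P C5 and C7 differences to Sensitized were 0.08 and −0.02, Sensitized against Naive was 0.58 and S+P C5 against S+P C4 was 0.27, none of them called.

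The other 5 Maf peaks were open in all groups. The promoter peak had 513 to 783 counts in unsensitized and 671 to 1179.7 in sensitized mice, with 0.60 ± 0.14 (adjusted p 0.000173) for Sensitized against Naive. Maf +307.5 kb had 475 to 615 in Sensitized and 311 to 483 in S+P C4, a difference of −0.63 ± 0.16 (adjusted p 0.00862), which missed the p threshold without Sensitized replicates 3 and 4, at −0.54 (adjusted p 0.105). In S+P C7 it had 273 to 451, or −0.67 against Sensitized, and without these replicates −0.58 (adjusted p 0.0242), short of the fold threshold. The +309.6 kb peak and both peaks in introns of the neighbouring Wwox gene (+517.8 and +519.2 kb) were not called in any comparison.

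Ikzf2 (chromosome 1) encodes Helios, an Ikaros family factor expressed by regulatory and by chronically stimulated T cells. Its introns held peaks that moved in opposite directions. Ikzf2 +6.6 kb, near the start, closed with sensitization: it had 322, 334 and 298 in Naive, 250.0, 303 and 256 in N+P C1, and 219, 284 and 302 in N+P C5. In sensitized mice it had 36.9, 83.2, 157 and 131 in Sensitized, and in the S+P subsets 122, 123, 53.8 and 53.9 in C4, 77.0, 68.9, 86.6 and 51.5 in C5, and 92.7, 59.6, 69.6 and 40.0 in C7. No sensitized library reached the level of an unsensitized one. The difference was −1.64 ± 0.37 (adjusted p 0.00016) for Sensitized against Naive, −0.52 ± 0.35 for S+P C5 against Sensitized and −1.92 ± 0.37 (adjusted p 2.84e-06) for S+P C5 against N+P C5. With loess offsets the first and last of these were −2.37 and −3.46, and without Sensitized replicates 3 and 4 the first was −2.42. With loess offsets the peak was also called lower in both PD1+ subsets against Sensitized, at −1.33 (adjusted p 0.00634) in S+P C5 and −1.51 (adjusted p 0.000723) in S+P C7. These differences turned positive, at 0.26 and 0.13 and not called, without Sensitized replicates 3 and 4, so their direction depended on the setting.

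Ikzf2 +143.4 kb, deep in the gene, opened in the PD1+ cells of S+P mice. It had 82.7, 105 and 122 in Naive, 111, 87.5 and 90.4 in N+P C1, and 92.6, 111 and 168 in N+P C5. The sensitized libraries had 35.8, 60.4, 149.6 and 151 in Sensitized, and in the S+P subsets 159.9, 139, 66.5 and 62.8 in C4, 545, 619.9, 338 and 453 in C5, and 589, 518, 249 and 209.8 in C7. All 8 libraries of S+P C5 and S+P C7 lay above all 17 others, and the other groups overlapped. S+P C5 and C7 exceeded Sensitized by 2.30 ± 0.40 (adjusted p 5.99e-07) and 1.98 ± 0.40 (adjusted p 8.95e-06), and S+P C5 exceeded S+P C4 by 2.22 ± 0.40 (adjusted p 3.48e-06). The interaction was 2.04 ± 0.62 (adjusted p 0.0145). Here leaving out Sensitized replicates 3 and 4, which were the higher pair, raised the S+P C5 and C7 differences to 3.35 and 3.03 and gave a call for lower accessibility in Sensitized than in Naive (−1.12, adjusted p 0.0416). The promoter peak was lower in sensitized mice, with 1071 to 1138 in N+P C5 and 426 to 618 in S+P C5 (−1.03 ± 0.27, adjusted p 0.000474), and −0.51 ± 0.27 for Sensitized against Naive. The latter was called, at −1.03 (adjusted p 0.00119), without Sensitized replicates 3 and 4. The −1.2 kb peak had no call. The single Ikzf3 peak, Ikzf3 +75.8 kb on chromosome 11, in an intron of the gene for Aiolos, had 401 to 474 in S+P C5 and 261 to 308 in S+P C4, a difference of 0.64 ± 0.17 (adjusted p 0.0028) that did not reach the fold threshold.

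Rora (chromosome 9) encodes RORα, a nuclear receptor found in helper, innate and some effector T cells. With sensitization 4 of its 5 intronic peaks were called higher, and no Rora peak was called against Sensitized in any post-partum subset. A run of 4 intronic peaks lay 8.18, 10.5, 14.8 and 24.7 kb downstream of a promoter peak of a shorter Rora transcript (+636.1 kb). Rora +660.9 kb had counts of 27.6, 28.5 and 21.5 in Naive, 18.8, 22.4 and 37.7 in N+P C1, and 38.2, 39.7 and 60.1 in N+P C5. In sensitized mice it had 716, 592, 197 and 279 in Sensitized, and in the S+P subsets 201, 309, 604 and 503 in C4, 467, 560.2, 625 and 513 in C5, and 429.5, 482, 611 and 542 in C7. The values of Sensitized and of the 3 S+P subsets overlapped, and none reached down to those of unsensitized mice. Sensitized exceeded Naive by 4.12 ± 0.39 (adjusted p 1.82e-22), the smallest adjusted p among the members called there, and S+P C5 was 0.28 ± 0.33 (adjusted p 0.545) against Sensitized, or −0.27 without Sensitized replicates 3 and 4, neither of them called.

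Rora +650.9 kb had 34.4, 32.5 and 34.1 in Naive and 828, 739, 201 and 272 in Sensitized, a difference of 3.92 ± 0.44 (adjusted p 1.19e-16). The S+P subsets had 136 to 608 (C4), 304 to 523 (C5) and 316 to 627 (C7). The interaction there was −1.03 ± 0.61 (adjusted p 0.203), and without Sensitized replicates 3 and 4 it was −1.65 (adjusted p 0.0508), a call. In that fit S+P C5 against Sensitized was −0.88 (adjusted p 0.112, not called), opposite in sign to N+P C5 against Naive. Rora +646.6 kb and +644.3 kb rose by 3.40 ± 0.43 and 1.98 ± 0.33 with sensitization. With loess offsets Rora +646.6 kb lost its call in S+P C5 against N+P C5 (0.59) and was called in the interaction (−1.21, adjusted p 0.0963), and its gain with sensitization was 1.79. The +636.1 kb promoter peak had 471 to 726 counts over all libraries and differed by 0.02 ± 0.13, and the +380.7 kb intron had 625 to 1244 and no call. For N+P C5 against Naive the differences at +650.9 and +660.9 kb were 0.77 ± 0.48 and 0.84 ± 0.43, with unadjusted p of 0.107 and 0.051 (DESeq2).

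The calls fell into steps. Of the 16 peaks called higher in Sensitized against Naive, all 16 were also called higher in S+P C5 against N+P C5, a comparison without shared libraries, as were 91.5% of the 977 peaks called higher in Sensitized over the whole table. With loess offsets Tbx21 +5.5 kb, Rora +646.6 kb and Zeb2 +99.9 kb lost the S+P C5 against N+P C5 call. The further 4 of the 20 called there were Eomes −160.6 kb, the Eomes promoter, Ikzf2 +143.4 kb and Tbx21 −11.8 kb. The 7 interaction calls were Eomes −160.6 and −61.8 kb, Id2 −208.8 and −58.4 kb, Ikzf2 +143.4 kb, Maf +237.3 kb and Zeb2 −55.4 kb, and none was at Tbx21 or Rora. With loess offsets only Eomes −160.6 kb and Ikzf2 +143.4 kb kept this call. At these 7 the N+P C5 differences to Naive ran from −0.64 to 0.37. Of the 7, Eomes −160.6 kb, Id2 −208.8 kb, Maf +237.3 kb and Zeb2 −55.4 kb were in the S+P C5 list of reproducible peaks alone. The merged peaks came from the lists of the groups, so these were tested only because they were found in S+P C5. This selection favours higher counts there. The 5 peaks called higher in S+P C5 than in S+P C4 were Eomes −160.6 kb, Ikzf2 +143.4 kb, Id2 −208.8 kb, Maf +237.3 kb and Zeb2 +99.9 kb. None was in the S+P C4 list, and the same selection applies to those of Eomes, Id2 and Maf. At the Tbx21 introns these subsets differed by 0.47 to 0.94 with adjusted p of 0.156 to 0.658 in the fit without pairing. There S+P C5 exceeded S+P C4 in every same-numbered pair at +2.5 and +5.5 kb, and in all but replicate 3 at +11.1 kb.

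**Figure D4:**
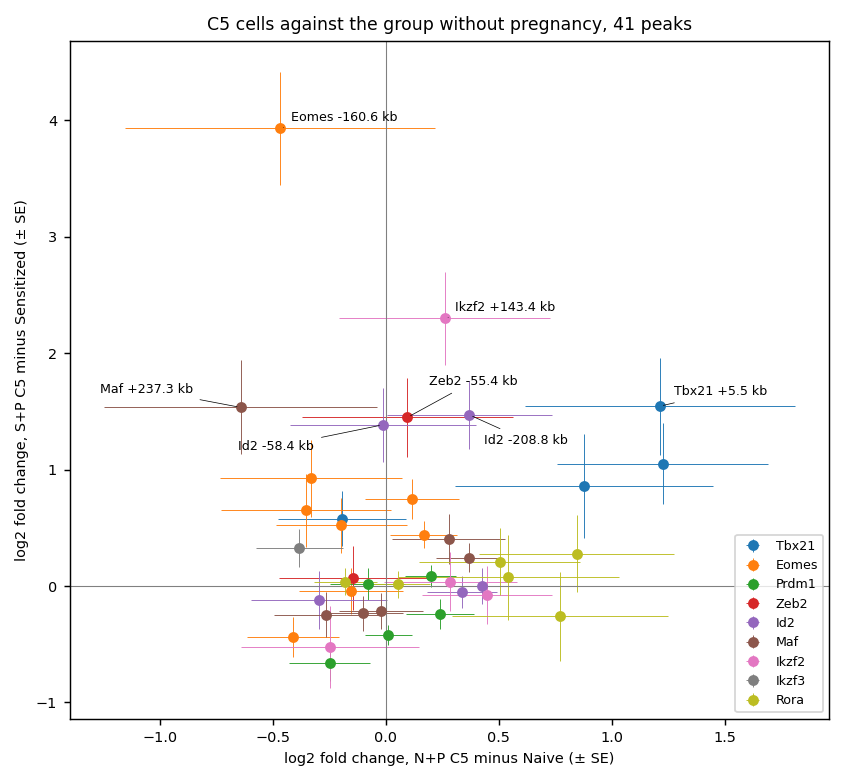
Log2 fold change of each of the 41 peaks in S+P C5 against Sensitized (vertical) and in N+P C5 against Naive (horizontal), with SE bars and 1 colour per gene; the axes share no libraries. Eomes −160.6 kb lies at 3.93 on the vertical and −0.47 on the horizontal axis, whereas Tbx21 +5.5 kb lies above 0 on both, at 1.54 and 1.21 with size factors (and at −0.06 on the vertical axis with loess offsets).

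How much of the S+P differences rested on the Sensitized libraries near N+P C5 was read from a fit without replicates 3 and 4, chosen after seeing the data. Against Sensitized, 4 of the 9 member calls of S+P C5 were kept, of the 10 in S+P C7 3 were, of the 2 in S+P C4 1 was, and of the 7 in the interaction 2 were. Calls in the other direction appeared at Zeb2 +99.9 kb in S+P C7 and at Rora +650.9 kb in the interaction. Eomes −160.6 kb and Ikzf2 +143.4 kb were called in both PD1+ subsets and in the interaction with either set of libraries. Tbx21 +5.5 kb fell to 0.83 (adjusted p 0.0272) in S+P C5 and 0.89 (adjusted p 0.00767) in S+P C7, under the fold threshold, and Tbx21 +11.1 kb fell to 0.36 in S+P C7. Against Naive, all 17 member calls were kept and 4 were added, at Tbx21 −11.8 kb and the Eomes promoter (higher) and at the Ikzf2 promoter and Ikzf2 +143.4 kb (lower). The groups then held 2 Sensitized libraries, whose spread was estimated together with that of the other groups.

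**Figure D5:**
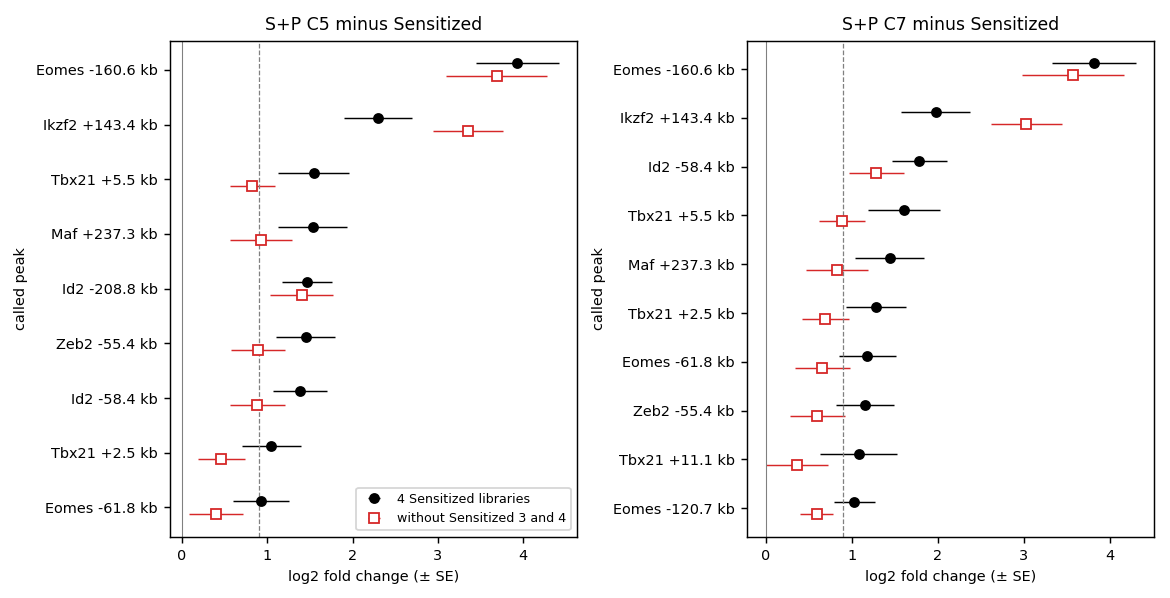
Log2 fold changes (± SE) of the peaks called in S+P C5 (left) and S+P C7 (right) against Sensitized, with all 4 Sensitized libraries (black circles) and without replicates 3 and 4 (red squares); the dashed line is the fold threshold of 0.9. Eomes −160.6 kb stays at 3.69 and Ikzf2 +143.4 kb moves up to 3.35 in S+P C5, while the Tbx21 peaks move down, to 0.83 at +5.5 kb.

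Other genes of the same circuits were read from lists of their peaks by the same assignment. Among 62 peaks of 14 targets of T-bet, Eomes and Blimp1, 25 were called higher and 5 lower in Sensitized against Naive, against 7.22% and 1.4% of all peaks, with a median of 0.54. The higher ones included all 4 peaks of Gzma, the gene of granzyme A (log2 1.99 to 5.32), 4 of 5 of Klrg1, a marker of terminal effectors (2.93 to 4.95), and 3 of 6 of Ifng (1.65 to 3.13). The lower ones included 4 of 6 of Ccr7, a homing receptor of naive cells (−1.49 to −0.93). In S+P C5 against Sensitized 5 of the 62 were higher, of which 4 were at Fasl, the death ligand (1.01 to 4.26), and 2 were lower, 1 of them at Ifng (−1.13), against 3.08% and 3.67% of all peaks. In S+P C7 against Sensitized 17 of the 62 were higher and 10 lower, against 3.84% and 8.03%, with 4 of the higher ones at Fasl and 3 at Gzma, and 5 of the lower ones at Ccr7. These S+P C7 counts were 6 higher and 8 lower without Sensitized replicates 3 and 4, and 4 and 10 with loess offsets. In S+P C5 they were 4 and 2, and 2 and 6, and in Sensitized against Naive 28 and 8, and 19 and 6, under the same settings.

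Among 128 peaks of 19 other regulators, 28 were higher and 6 lower in Sensitized against Naive (21.9% and 4.69%, against 7.22% and 1.4% of all peaks). In S+P C5 against Sensitized 7 were higher and 9 lower (5.47% and 7.03%, against 3.08% and 3.67%), and in S+P C7 7 and 22 (5.47% and 17.2%, against 3.84% and 8.03%). In the same order of comparisons, the counts higher and lower were 31 and 14, 4 and 4, and 3 and 18 without Sensitized replicates 3 and 4, and 24 and 9, 1 and 13, and 2 and 23 with loess offsets. The 9 lower ones in S+P C5 were 6 at Bach2 and 3 at Lef1, which keep cells in naive or memory states, and of the 7 higher ones 3 were at Tox, a factor of exhausted cells (0.90 to 2.24), 2 at Stat4, which acts below IL-12 (1.04 to 1.15), 1 at Nfil3 (2.26) and 1 at Klf2, a factor of quiescence and homing (1.06). In S+P C7, Tox had 2 peaks called higher and 3 called lower. Among 20 peaks of 10 relatives of the members, such as Zeb1, Id3 and Ikzf1, 1 was called higher (at Prdm10, 1.34) and 1 lower (at Ikzf4, −0.93) in Sensitized against Naive. These counts were 1 and 3 without Sensitized replicates 3 and 4, and 1 and 1 with loess offsets. In S+P C5 against Sensitized 0 were higher and 0 lower. In S+P C7 0 were higher and 2 lower (10%, against 8.03% of all peaks), at Prdm10 (−1.69) and Prdm2 (−0.91).

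The peaks outside these genes whose log2 counts followed a member most closely over the 25 libraries were found by Pearson's r, given without a test since the libraries share groups and depth. For Tbx21 +5.5 kb they were in an intron of Pbx3, at the start of Nek6 and −26653 bp from the start of Itpkb (r 0.977, 0.976 and 0.975). For Eomes −160.6 kb they were in introns of Wwox (0.964), Gxylt1 (0.959) and Supt3, where Runx2 overlaps (0.958). For Zeb2 −55.4 kb they were upstream of Bach2 (0.986), Xpo7 (0.985) and Tmprss13 (0.983). For Prdm1 −1.0 kb they were at the starts of 1700014B07Rik (0.976) and Mtfr1 (0.968) and 108284 bp from Btg1 (0.969).

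Each group's own list of reproducible peaks overlapped the 41 by at least 1 base to different extents. The S+P C5 list held 36 of them, S+P C7 23, Sensitized 20, Naive 14, N+P C5 13, N+P C1 12 and S+P C4 3, where the lists held 11384, 8799, 9792, 8638, 8479, 8602 and 3788 peaks in that order. The share of all 13527 merged peaks in each list, or in the S+P C5 list alone, was not counted. These counts are therefore not read as particular to the 41. Eomes −160.6 kb, Zeb2 −55.4 kb, Maf +237.3 kb, Id2 −208.8 kb and Tbx21 +5.5 kb were in the S+P C5 list alone, and so were Eomes −81.6 kb, Ikzf3 +75.8 kb and Prdm1 +84.6 kb, which were not called in any comparison, and Rora +646.6 kb, which was not called against Sensitized. At each of the first 5 the counts of S+P C5 overlapped with those of S+P C7. Ikzf2 +6.6 kb was in the Naive, N+P C1 and N+P C5 lists and in no list of sensitized mice. Each list holds the peaks found reproducibly over the libraries of a group, and the lists differ in length. Presence in 1 of them gives no spread between libraries. The merged peaks came from these lists, so members in the S+P C5 list alone were tested only because they were found in that group.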

How the data were processed

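ATAC-seq was run on sorted T_FGS, and all libraries were sequenced in 1 run. The authors trimmed reads with cutadapt 3.4, aligned them to GRCm39 with Bowtie2 2.2.9, removed PCR duplicates with Picard 2.21.8 and called peaks per library with Genrich 0.6.1. The reproducible peaks of each group were deposited as lists with a score, a signal value and a p-value and q-value per peak, and only their positions were used here. The deposited table holds raw counts of 25 libraries in 13527 merged peaks, with no scaling by the authors.

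Counts were fitted with DESeq2 1.42.0 (R 4.3.3), in 1 model of all 25 libraries whose only term was the group, with median-of-ratios size factors, independent filtering and p-values adjusted over all peaks by Benjamini-Hochberg. Fold changes are unshrunken log2 values ± SE of the first-named group minus the second. Normalized counts are counts divided by the size factor. Every peak ended inside a GRCm39 sequence. Named were each gene's promoter peak with the highest mean, its 2 other peaks with the largest spread of group means, and the call with the smallest adjusted p in each direction of each comparison; the remaining members were added for completeness. The 9 genes and all lists were chosen with earlier results of these data known. Where same-numbered libraries came from subsets of post-partum mice, their deviations from the group means correlated (r 0.103 to 0.771 over 11 pairs), so the numbers were taken to pair them; other comparisons had no pairing. Alternatives were edgeR 4.0.16, total counts as size factors, loess offsets, a low-count filter, no independent filter, an adjusted p under 0.05, the compared groups alone, assignment by nearest start alone, a replicate block and each library left out. In some alternatives DESeq2 replaced its parametric dispersion trend by a local one. Depth limits peaks with few counts in the shallowest library. P-values measure the spread between these libraries. Some genes and sequences are not reported here.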

Additional observations from a re-analysis of the deposited data

Results flagged for a closer look

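In 7 peaks the difference of C5 cells to the group without pregnancy differed between sensitized and unsensitized mice by the interaction term (DESeq2). Pregnancy and sorted subset differ together in this term. The log2 interaction was 4.40 at Eomes −160.6 kb, 1.25 at Eomes −61.8 kb, 1.10 at Id2 −208.8 kb, 1.40 at Id2 −58.4 kb, 2.04 at Ikzf2 +143.4 kb, 2.18 at Maf +237.3 kb and 1.35 at Zeb2 −55.4 kb. Without Sensitized replicates 3 and 4, those of Eomes −160.6 kb and Ikzf2 +143.4 kb were called, at 4.16 and 3.10, and the other 5 were not. With loess offsets too, only these peaks kept the call. Those of Eomes −61.8 kb, Id2 −208.8 kb and Zeb2 −55.4 kb were each kept under 11 of 22 alternatives.

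A single library stood far from the other 3 of its group in 9 of 164 sets of 4 values, where chance gives about 1 in 20. The gap to the nearest value, as a share of the group's range, was 0.948 for Sensitized replicate 2 (high) at Eomes −81.6 kb and 0.92 for Sensitized replicate 1 (low) at Maf +307.5 kb. It was 0.888 for Sensitized replicate 1 (high) at Rora +636.1 kb. In S+P C4 it was 0.875 for replicate 2 (high) at Id2 −208.8 kb, 0.894 for replicate 3 (high) at Maf +237.3 kb and 0.889 for replicate 1 (high) at Prdm1 −1.0 kb. In S+P C5 it was 0.943 for replicate 3 (low) at Rora +380.7 kb and 0.858 for replicate 2 (high) at Tbx21 +2.5 kb. In S+P C7 it was 0.844 for replicate 1 (high) at Prdm1 −1.0 kb.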

How the results depend on the processing

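Of 56 differences at the named peaks that were called, 29 kept their call under every alternative computed for them, and 3 changed sign, all with loess offsets. These were Tbx21 +5.5 kb in S+P C5 against Sensitized (−0.0597) and against N+P C5 (−0.51), and Maf +237.3 kb in S+P C7 against Sensitized (−0.0159); the cause was not tested. Loess offsets took the counts of member calls to 4 (3 higher, 1 lower) and 6 (5 higher, 1 lower) in S+P C5 and C7 against Sensitized, 3 in S+P C5 against S+P C4 and 3 (2 higher, 1 lower) in the interaction, and called Eomes −160.6 kb lower in Sensitized than in Naive (−2.09), where it was not called before. Leaving out Sensitized replicates 3 and 4, an alternative added after seeing the data, gave 4, 4 (3 higher, 1 lower) and 1 calls in S+P C5, C7 and C4 against Sensitized and 3 (2 higher, 1 lower) in the interaction. At an adjusted p under 0.05 the interaction had 4. N+P C1 against Naive had 1 call (Eomes −120.7 kb, lower) with the independent filter off, with total counts, with the compared groups alone and with the replicate block, and N+P C5 against Naive had 1 (Tbx21 +2.5 kb, higher) with the compared groups alone. S+P C4 against Sensitized had 1 call with the compared groups alone, with the replicate block and with assignment by nearest start alone. With 1 library left out, the counts ran from 1 to 6 there, from 0 to 1 in S+P C7 against S+P C5 and from 3 to 10 in the interaction. The counts of Sensitized against Naive and of S+P C5 against N+P C5 stayed within 1.5 times under all alternatives. In the paired comparisons the replicate block gave 0 calls in N+P C5 against N+P C1, 6 in S+P C5 against S+P C4 and 0 in S+P C7 against S+P C5, and it removed no call at a named peak there. The low-count filter removed no peak.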
